A study of Homo sapiens with 6 samples.

Results

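The 10 genes described here encode the core of the NF-kB pathway. They are the subunits RELA, RELB, REL, NFKB1 and NFKB2, the classical IkB inhibitors NFKBIA, NFKBIB and NFKBIE, and the IkB kinases CHUK and IKBKB. They were chosen by name, whatever their values, and all 10 were found among the 20035 genes of the deposited table. RNA came from HaCaT cells, a spontaneously immortalized keratinocyte line of human skin, labelled wild type in every sample. The 3 control libraries carry the treatment label none, and the 3 other libraries carry the label palmatine, the name of a plant alkaloid related to berberine. The series' design text describes stimulation with IL-17 as a model of psoriatic inflammation before palmatine was given, but the sample labels do not state whether the controls received IL-17. If they did not, IL-17 and palmatine cannot be told apart in this comparison. No dose or duration is given in the sources used here. Nothing in the labels says that replicates were separate cultures. The p-values therefore reflect the spread among these 6 libraries, and that spread may be technical.

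NF-kB is a family of dimeric transcription factors that IkB proteins hold in the cytoplasm of resting cells. Receptors for TNF, IL-1 and IL-17 switch on the IkB kinase complex, whose kinases mark IkB proteins for degradation, and the freed dimers enter the nucleus and induce cytokines, chemokines and several of the pathway's own genes. In keratinocytes this is a main route of the inflammatory response in psoriatic skin. Its switch acts on proteins, whereas only transcript levels were measured here.

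The promoters of these genes are shown because several of them are known NF-kB targets themselves. RefSeq promoter windows on GRCh38.p14, running from 250 bases before to 50 bases after a start site, matched 7 of the 10 genes by symbol, with 12 windows in all, of which 6 held a match to the kB consensus. This 10-base motif reads GGGRNNYYCC, where R is A or G, Y is C or T and N is any base. It was searched on both strands, and overlapping hits were joined into 1 match, so some matches are longer than 10 bases. The motif was found in at least 1 window of 5 of these 7 genes, namely REL, NFKB1, NFKB2, NFKBIA and NFKBIB. It was found in none of the windows of RELA and CHUK. The share of all 27305 symbols with a match was 13.25%, and that of all 35116 full-length windows was 11.27%. Each stretch below is read 5′ to 3′ on the gene's strand, with the match in capitals.
REL, chr2:60881502-60881562, plus strand: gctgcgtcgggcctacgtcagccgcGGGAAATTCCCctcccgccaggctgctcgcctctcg
NFKB1, chr4:102501285-102501344, plus strand: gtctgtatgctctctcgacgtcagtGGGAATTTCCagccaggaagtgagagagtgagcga
NFKB2, chr10:102394446-102394534, plus strand: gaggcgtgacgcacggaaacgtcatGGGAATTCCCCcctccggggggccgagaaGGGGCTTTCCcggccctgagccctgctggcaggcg
NFKB2 at a later start site, chr10:102395659-102395718, plus strand: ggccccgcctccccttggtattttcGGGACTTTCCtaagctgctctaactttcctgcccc
NFKBIA, chr14:35404796-35404855, minus strand: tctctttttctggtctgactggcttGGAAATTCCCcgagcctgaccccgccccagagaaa
NFKBIB, chr19:38899916-38899976, plus strand: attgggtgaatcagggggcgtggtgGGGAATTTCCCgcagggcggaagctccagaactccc

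Positions of the matches are limited to the window searched. Counting the start site as 1 and the base before it as -1, the match ran from -47 to -37 in REL, from -49 to -40 in NFKB1 and from -81 to -72 in NFKBIA, where the consensus reads on the opposite strand. In NFKBIB it ran from -28 to -18, and a second match made only of G and C ran from 39 to 48. NFKB2 had 3 windows, and that of the first start site held no match. The other windows held 2 matches each. These ran from -107 to -97 and from -78 to -69 before the second start site, and from -176 to -167 and from -21 to -12 before the third. A match describes these letters and shows no binding.

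The libraries held 12908646 to 17218171 counts, and all 6 had the profile of keratinocytes. All 10 keratinocyte markers were at a mean of at least 1 FPKM, with KRT14 at 970 FPKM, and their summed level was 2549 to 2606 FPKM in control and 2551 to 2808 FPKM in palmatine libraries. The T cell markers summed to at most 0.0643 FPKM in any library, with CD3D and CD2 at 0 counts. The myeloid, fibroblast, melanocyte and endothelial lists each summed to at most 2.44 FPKM in any library. In these lists only the myeloid marker CD14 and the endothelial marker CDH5 had a mean of at least 1 FPKM, at 1.94 and 1.00 FPKM.

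Among the 10 genes, NFKBIA had the highest level per length and REL the lowest. Levels between genes are compared as FPKM, read counts divided by the authors' gene length and by the library total. NFKBIA, the fast-resynthesized inhibitor, averaged 35.5 ± 1.79 FPKM in the controls and 36.1 ± 1.91 FPKM with palmatine (SD, n = 3 each). RELA, the transactivating subunit of the most common dimer, followed with 15.0 ± 2.26 FPKM in the controls and 17.5 ± 0.904 FPKM with palmatine (SD, n = 3 each). The levels of NFKB2, the precursor subunit of the noncanonical branch, had a mean of 11.9 FPKM over the 6 libraries, and those of CHUK had a mean of 9.85 FPKM. Ranges over the 6 libraries did not overlap between neighbours in this order down to NFKBIB, at a mean of 7.97 FPKM.

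Below that, neighbours overlapped. NFKBIB was above NFKB1 in 5 of 6 libraries, and NFKB1, at 6.32 FPKM, and RELB, at 6.23 FPKM, changed places, with NFKB1 higher in 3 of 6. IKBKB had a mean of 5.29 FPKM and NFKBIE one of 4.30 FPKM, and each stood below its upper neighbour in all 6 libraries although the ranges overlapped. REL, best known from lymphoid cells, was apart from the others with 1.41 to 2.16 FPKM.

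The place of NFKB1 in this order rests on its length. The authors' table gives 15679 bases for NFKB1, against 6257 bases for the union of its exons in GENCODE 29. With exon-union lengths, an alternative added after the data were seen, NFKB1 had a mean of 15.8 FPKM and ranked 3 of 10, above NFKB2 at 14.8 FPKM. NFKBIA then had a mean of 51.2 FPKM and REL one of 2.30 FPKM, and they kept the first and last places. Only the length was exchanged and the reads were not counted again. Reads from outside the GENCODE 29 exons, if any, therefore remain in these values and would make them too high. The main comparison of a gene between groups uses the counts and is not touched by its length in this way. The fit with the length trend removed, given below, does use the authors' lengths.

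**Figure D1:**
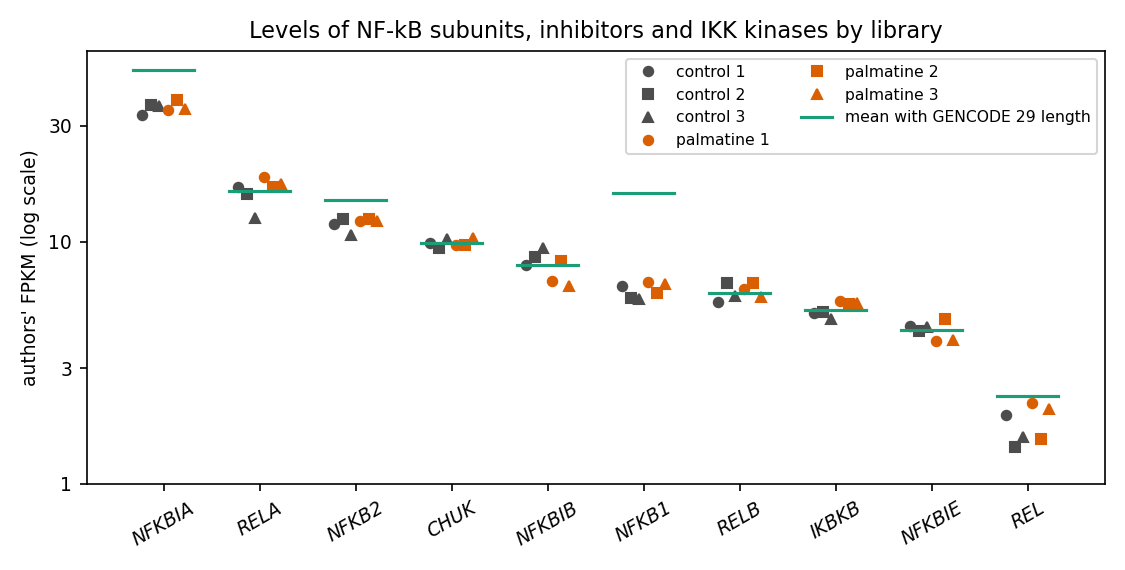
Authors' FPKM (log axis) of the 10 genes in each of the 6 libraries, ordered by the mean over libraries; grey points are control, orange points palmatine, the marker shape gives the replicate number, and the green line is the mean recomputed with the GENCODE 29 exon-union length. The groups overlap for every gene but IKBKB, and the green line stands farthest from the points for NFKB1, whose length changes from 15679 to 6257 bases.

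The question of the comparison was whether palmatine libraries differ from control libraries in the transcripts of these pathway components. No component passed the threshold: of the 10 genes, all tested, edgeR called 0 at an adjusted p of 0.05, as did DESeq2 and limma-voom. Over all 12356 genes tested, 0 were called higher and 5 lower, a share of 0.0405%. At an unadjusted p under 0.05 there was 1 of the 10, NFKBIB, which was lower in palmatine, against 9.82% of all genes in either direction and 4.69% in the lower direction. The groups did not overlap for 1 of the 10, IKBKB, against 12.4% of all genes. Of the log2 fold changes, palmatine minus control, 5 were positive and 5 negative, with a median of -0.00, and the median of all genes was -0.00. The signs of RELB, NFKB1, NFKB2, NFKBIA, CHUK and IKBKB each turned under at least 1 alternative setting. With library size alone, 1 of these settings, the median of all genes was itself 0.06.

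The intervals give the range of difference that the spread among these libraries allows in the main fit. That spread may be technical, and the intervals leave out the choices of scaling and length trend. For 9 of the 10 genes the 95% interval of the fold change lay within 1.5-fold in either direction, and for all 10 it lay within 2-fold. Of all genes tested 79.4% and 94.9% did so. NFKBIB was the gene whose interval reached past 1.5-fold. In bulk RNA, fewer cells of a kind and less RNA per cell cannot be told apart, so each value is an average over the culture.

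**Figure D2:**
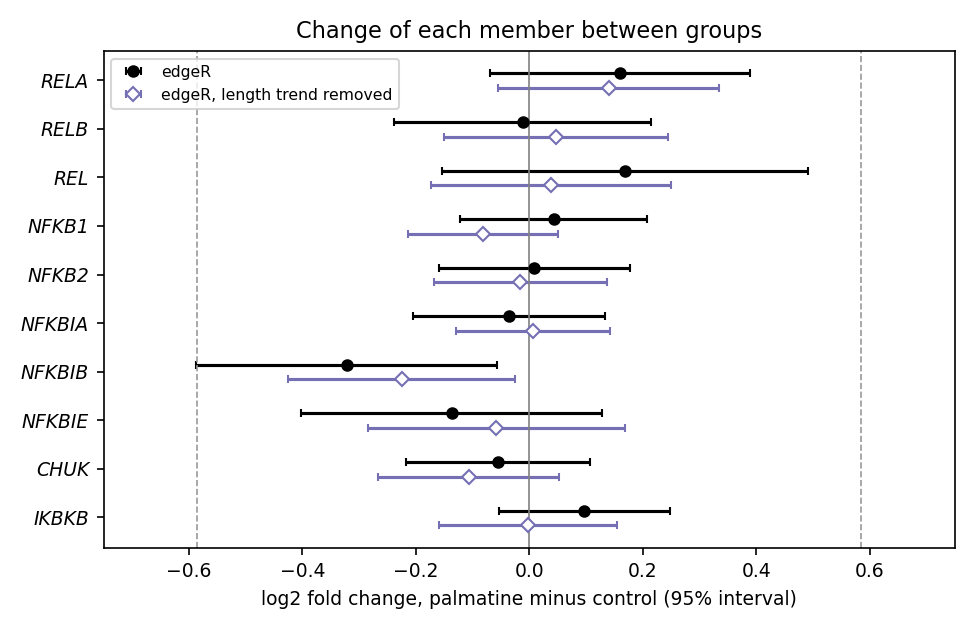
Log2 fold change, palmatine minus control, of each gene with its 95% interval, from edgeR (black) and from edgeR with each library's trend on gene length removed (purple); dashed lines mark a 1.5-fold change. The interval of NFKBIB lies below 0 in both fits, at -0.32 and -0.23, and the other 9 genes' intervals cross 0.

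Of the 5 subunits, 4 had positive values in edgeR and none passed; with library size alone RELB was positive too, at 0.05, and with the length trend removed NFKB1 and NFKB2 were negative, at -0.08 and -0.02. RELA (ENSG00000173039, chr11:65653599-65663090, minus strand) was at 93.5, 87.3 and 70.3 CPM in control libraries 1 to 3 and at 97.5, 90.5 and 92.6 CPM in palmatine libraries 1 to 3. Control 3 was the low library, and control 1 lay inside the palmatine range, so the groups overlapped. The log2 fold change was 0.16 ± 0.102 (SE, edgeR adjusted p = 0.489), and it was 0.05 without control replicate 3.

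NFKB1 (ENSG00000109320, chr4:102501330-102617302, plus strand) encodes the precursor of the usual partner of RELA. It was at 104, 94.1 and 94.1 CPM in control and at 103, 95.1 and 103 CPM in palmatine libraries. Control 1 matched the higher palmatine libraries, and the log2 fold change was 0.04 ± 0.0732 (SE, edgeR adjusted p = 0.797). Its 95% interval, from -0.12 to 0.21, was the narrowest of the 5 subunits.

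REL (ENSG00000162924, chr2:60881491-60931612, plus strand) was at 33.5, 24.7 and 27.5 CPM in control and at 35.7, 26.0 and 34.3 CPM in palmatine libraries. The libraries with high values were control 1, palmatine 1 and palmatine 3, so the split ran across the groups. The log2 fold change of 0.17 ± 0.143 (SE, edgeR adjusted p = 0.582) had the widest 95% interval of the 10 genes, from -0.15 to 0.49. It was 0.30 without control replicate 1 or without palmatine replicate 2, 0.07 without control replicate 2 and 0.08 without palmatine replicate 1. In GENCODE 29, AC010733.2, a non-coding gene on the same strand, spans 5702 of the exon bases of REL, so that reads in this stretch cannot be assigned to REL alone.

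The noncanonical subunits were close to even. NFKB2 (ENSG00000077150, chr10:102394110-102402524, plus strand) was at 66.7, 70.7 and 61.5 CPM in control and at 65.3, 68.7 and 66.5 CPM in palmatine libraries, with all palmatine values inside the control range. Its log2 fold change was 0.01 ± 0.0748 (SE, edgeR adjusted p = 0.961). RELB (ENSG00000104856, chr19:45001461-45038192, plus strand), the partner of processed NFKB2, was at 17.2, 20.6 and 18.4 CPM in control and at 18.4, 20.0 and 17.5 CPM in palmatine libraries. Its log2 fold change was -0.01 ± 0.101 (SE, edgeR adjusted p = 0.966), and here too all palmatine values lay inside the control range.

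The 3 inhibitors had negative values in edgeR, and none passed; NFKBIA was positive in 5 of 18 alternative settings, at 0.03 with library size alone and 0.01 with the length trend removed. NFKBIB (ENSG00000104825, chr19:38899700-38908893, plus strand), which encodes IkB-beta, was at 18.9, 20.4 and 22.5 CPM in control and at 15.3, 19.2 and 15.0 CPM in palmatine libraries. Palmatine 1 and 3 lay below every control, while palmatine 2 lay just above control 1, so the groups overlapped by that pair. The log2 fold change was -0.32 ± 0.118 (SE), with a 95% interval from -0.59 to -0.06, an unadjusted p of 0.0224 and an adjusted p of 0.455 in edgeR. It stayed negative in each of 18 alternative settings, from -0.44 without palmatine replicate 2 to -0.23 with the length trend removed, and its adjusted p ran from 0.131 to 0.932 over them. SIRT2, on the opposite strand, spans 40 of its exon bases.

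NFKBIA (ENSG00000100906, chr14:35401079-35404749, minus strand), which encodes IkB-alpha, is induced by NF-kB itself and terminates the response. It was at 115, 127 and 127 CPM in control and at 114, 129 and 118 CPM in palmatine libraries. Control 2, control 3 and palmatine 2 were the high libraries, and the lowest and the highest value were both palmatine. The log2 fold change was -0.04 ± 0.0752 (SE, edgeR adjusted p = 0.838), with an interval from -0.21 to 0.13.

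NFKBIE (ENSG00000146232, chr6:44258166-44265788, minus strand), which encodes IkB-epsilon, was at 11.8, 11.3 and 11.8 CPM in control and at 9.63, 12.3 and 9.93 CPM in palmatine libraries. The palmatine libraries surrounded the controls, with palmatine 2 above and the other two below them. The spread was 0.278 CPM (SD, n = 3) in control and 1.44 CPM (SD, n = 3) in palmatine libraries. The log2 fold change was -0.14 ± 0.118 (SE, edgeR adjusted p = 0.588), and it was -0.25 without palmatine replicate 2, -0.07 without palmatine replicate 1 and -0.09 without palmatine replicate 3. With 148 to 188 counts per library it was the least deeply counted of the 10 genes.

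Neither IkB kinase passed. In edgeR IKBKB had a positive and CHUK a negative value. With library size alone both were positive, at 0.16 and 0.01, where the median of all genes was 0.06. With the length trend removed both were negative, at -0.00 and -0.11. IKBKB (ENSG00000104365, chr8:42271302-42332460, plus strand), the kinase of the classical route, was at 57.0, 58.0 and 54.3 CPM in control and at 60.5, 60.1 and 60.6 CPM in palmatine libraries. Every palmatine value lay above every control value. The log2 fold change was 0.10 ± 0.0669 (SE, edgeR adjusted p = 0.514). CHUK (ENSG00000213341, chr10:100188300-100229596, minus strand), the kinase of the noncanonical route, was at 69.1, 66.3 and 72.8 CPM in control and at 64.2, 65.9 and 70.2 CPM in palmatine libraries, and the groups overlapped. Its log2 fold change was -0.05 ± 0.0723 (SE, edgeR adjusted p = 0.733). ERLIN1 on the same strand spans 37 of its exon bases and AL138921.2 on the opposite strand 77.

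The makeup of each class was described from FPKM within a library, where library scaling plays no part but the gene length does. RELA made up 37.0% ± 2.62 of the summed subunit FPKM in control and 39.3% ± 0.929 with palmatine (SD, n = 3 each). NFKB2 made up 28.8% ± 1.07 in control and 27.5% ± 1.08 in palmatine, NFKB1 15.1% ± 1.02 and 14.7% ± 0.581, RELB 15.2% ± 1.71 and 14.3% ± 1.07, and REL 4.04% ± 0.603 and 4.28% ± 0.661 (SD, n = 3 each). With GENCODE 29 exon-union lengths NFKB1 made up 28.9% ± 1.60 in control and 28.3% ± 0.925 in palmatine, and RELA 28.2% ± 2.16 and 30.2% ± 0.642 (SD, n = 3 each), so the order of the subunits rests on the length used. For each of the 5 subunits the groups overlapped with either length.

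Among the inhibitors the shares of NFKBIA and NFKBIB did not overlap between groups. Both are parts of the same sum, so they are not separate results. In CPM each of these genes overlapped between groups, while 12.4% of all genes tested did not. How often such shares fail to overlap was not computed. NFKBIA made up 72.7%, 74.0% and 72.4% of the summed inhibitor FPKM in control libraries and 76.5%, 74.5% and 77.1% in palmatine libraries. NFKBIB made up 17.5%, 17.4% and 18.8% in control and 15.0%, 16.2% and 14.4% in palmatine libraries. NFKBIE, at 9.10% ± 0.600 in control and 8.79% ± 0.470 in palmatine (SD, n = 3 each), overlapped.

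The ratio of summed inhibitor to summed subunit FPKM was 1.07, 1.18 and 1.37 in control and 0.991, 1.18 and 1.04 in palmatine libraries. Control 3, where RELA was low, had the highest ratio, and the groups overlapped. The ratio was higher in control 2, control 3 and palmatine 2 than in the other libraries. These are the libraries that leaned to short genes, as described below. The inhibitors have 2324 to 3394 bases, and the subunits have 5457 to 17129, apart from RELB with 2997. How far gene length bears on this ratio was not tested. The means were 1.21 ± 0.152 in control and 1.07 ± 0.0979 with palmatine (SD, n = 3 each), a difference of -0.17 in the mean log2 ratio, with a pooled SD of 0.156. The difference was -0.08 without control replicate 3 and -0.34 without NFKBIA.

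A pair of further ratios was chosen after the values were seen and is given with no test. NFKBIA to NFKBIB was 4.16, 4.26 and 3.86 in control and 5.09, 4.59 and 5.35 in palmatine libraries, without overlap. This ratio restates the inhibitor shares given above. CHUK to IKBKB was 1.94, 1.83 and 2.14 in control and 1.70, 1.76 and 1.85 in palmatine libraries, where palmatine 3 stood above control 2.

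The summed levels depended on scaling. As deposited, with FPKM scaled by the library total, the summed subunit FPKM was 36.5 to 42.8 in control and 43.7 to 46.0 in palmatine libraries, and the groups did not overlap. Divided by the TMM factors used in the test, an alternative added after the data were seen, the values were 37.6 to 43.4 and 43.1 to 44.3, and they overlapped. The summed kinase FPKM was likewise apart as deposited, at 14.5 to 15.0 in control and 15.2 to 15.9 in palmatine libraries, and overlapped after the division, at 14.8 to 15.5 and 14.8 to 15.7. With library size alone the median log2 fold change of all genes was 0.06.

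**Figure D3:**
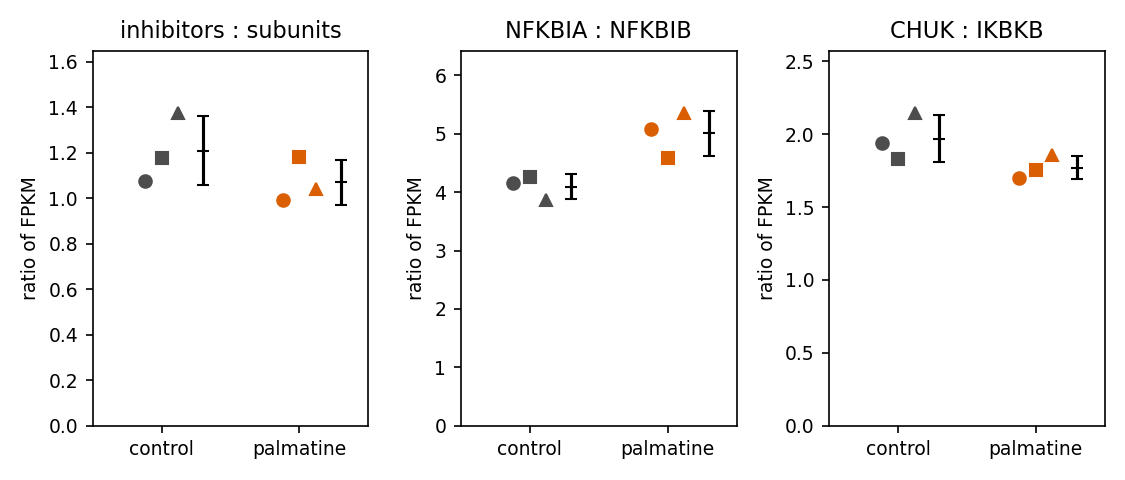
Ratios of FPKM per library for summed inhibitors to summed subunits, NFKBIA to NFKBIB and CHUK to IKBKB; points are libraries with marker shapes for replicate numbers as circle 1, square 2 and triangle 3, and bars are mean ± SD of 3 libraries. The groups overlap for the first and last ratio, and for NFKBIA to NFKBIB the control values of 3.86 to 4.26 lie below the palmatine values of 4.59 to 5.35.

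The order of the fold changes among the 10 genes followed gene length, as it did across the table. The Spearman correlation of the log2 fold change with the authors' length was 0.758 over the 10 genes and 0.443 over all 12356 genes tested, which share the same 6 libraries and are not independent replicates. The slopes of log2 CPM on log2 length, relative to the mean of the 6 libraries, were 0.02, -0.06 and -0.09 in control libraries 1 to 3 and 0.10, -0.04 and 0.06 in palmatine libraries 1 to 3. Control 2, control 3 and palmatine 2 thus leaned to short genes and the other 3 libraries to long ones. The same 3 libraries, control 2, control 3 and palmatine 2, were the highest for NFKBIA and NFKBIB in CPM and the lowest for REL and NFKB1. Not every gene was split in this way. For the short NFKBIE, control 1 at 11.8 CPM stood above control 2 at 11.3 CPM. For IKBKB, with 11048 bases, control 1 at 57.0 CPM stood below control 2 at 58.0 CPM and palmatine 2 at 60.1 CPM. The lengths run from 2324 bases for NFKBIB and 2581 for NFKBIE to 17129 for REL.

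With each library's loess trend on length removed, the correlation was 0.127 over the 10 genes and 0.0309 over all genes. The removal itself brings the value over all genes near 0, so that value is no test. Where the slopes differ between groups, the removal can also take out part of a group difference. NFKBIB then had a log2 fold change of -0.23 ± 0.0913 (SE, edgeR adjusted p = 0.467), RELA one of 0.14 ± 0.0891 (SE, adjusted p = 0.515) and REL one of 0.04 ± 0.0964 (SE, adjusted p = 0.886). NFKBIE had a value of -0.06, CHUK one of -0.11 and RELB one of 0.05, and the signs of RELB, NFKB1, NFKB2, NFKBIA and IKBKB turned. The value of NFKB1 in this fit rests on the authors' length of 15679 bases, against 6257 in GENCODE 29. No gene of the 10 passed in this fit either.

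**Figure D4:**
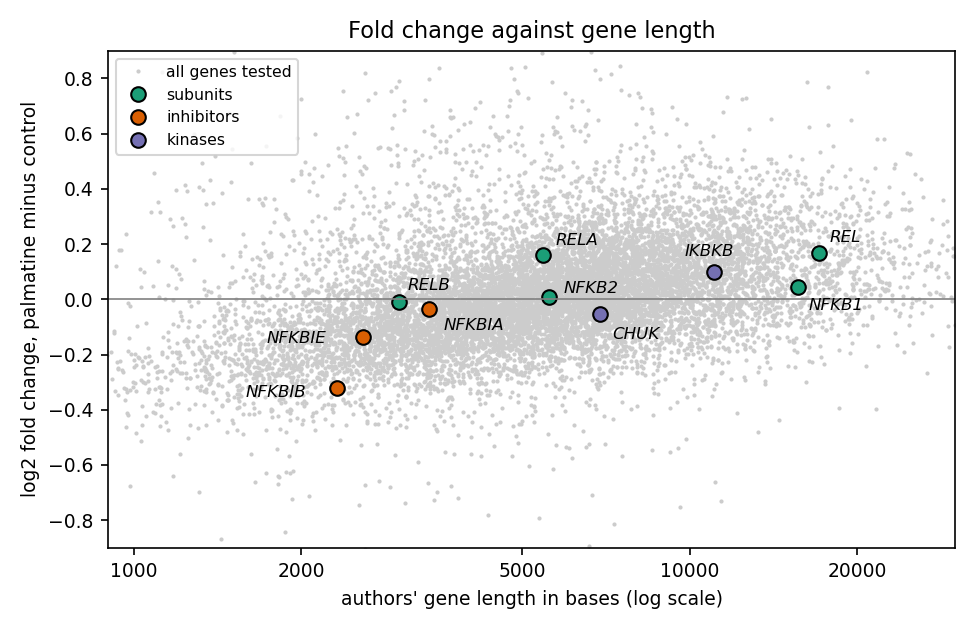
Log2 fold change, palmatine minus control, against the authors' gene length in bases (log axis), for genes tested within the axis limits (grey) and for the subunits, inhibitors and kinases (coloured). The cloud rises from left to right, with the short NFKBIB at -0.32 and the long REL at 0.17.

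Around the core, 77 other genes of the pathway were listed by role in 10 lists, of which 72 could be tested, and none passed. Their median log2 fold change was 0.03, with 43 positive and 29 negative values, and the smallest adjusted p was 0.455 in edgeR. At an unadjusted p under 0.05 there were 3 with positive and 4 with negative values, against 634 and 579 of all genes tested, a split that was 1539 and 179 with library size alone. Too few counts for a test were held by TNFRSF1B, LTA, LTB, TNFSF11 and IL17C.

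IKBKG, the scaffold that holds both kinases, averaged 13.0 ± 0.984 CPM in the controls and 13.4 ± 1.04 CPM with palmatine (SD, n = 3 each), with a log2 fold change of 0.03. It has 1 named pseudogene in GENCODE 29, with which reads may be shared. Among the 4 atypical IkB proteins, NFKBIZ, the co-activator of many IL-17 responses, had a value of 0.04, BCL3 one of 0.17 and NFKBID one of 0.23. TRAF3IP2, the adaptor of the IL-17 receptor, averaged 70.7 ± 1.51 CPM in the controls and 70.2 ± 1.15 CPM with palmatine (SD, n = 3 each). MAP3K14, the kinase above CHUK in the noncanonical branch, had a value of 0.13, MAP3K3 one of 0.21 and IRAK1 one of -0.11.

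Of 14 adaptors and E3 ligases, MYD88, the adaptor of IL-1 and Toll-like receptors, had a log2 fold change of -0.16 (unadjusted p = 0.0423, adjusted p = 0.455 in edgeR), TRAF1 one of 0.32 and TRAF6 one of 0.13. The linear ubiquitin genes SHARPIN, RBCK1 and RNF31 had values of -0.18, -0.03 and 0.14, the last from about 1 CPM. The brakes TNFAIP3, CYLD, OTULIN and COMMD1 had values of 0.20, 0.03, 0.14 and -0.28. With the length trend removed these brakes had values of 0.16, -0.08, 0.06 and -0.17. RBX1, BTRC and FBXW11, parts of the ligases that ubiquitinate IkB, had values of -0.29, 0.14 and 0.03.

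Among the coactivators of RELA, the acetyltransferases EP300 and CREBBP had values of 0.51 and 0.43, and EP300 reached an unadjusted p under 0.05 (0.0452, adjusted p = 0.455 in edgeR). With the length trend removed EP300 and CREBBP, with 11692 and 15479 bases, had values of 0.41 and 0.32. The receptors IL17RA, IL1R1 and TNFRSF12A had values of 0.21, 0.32 and -0.35, with unadjusted p of 0.0343, 0.0577 and 0.0334 in edgeR. With the length trend removed these receptors had values of 0.13, 0.26 and -0.23, with unadjusted p of 0.0790, 0.0852 and 0.0287 in edgeR. Of the 6 tested ligands, IL1B and IL1A had values of -0.45 and -0.35. TNFSF14, with a mean of 1.64 ± 0.253 CPM in the controls and 2.92 ± 0.611 CPM with palmatine (SD, n = 3 each), had one of 0.84. In edgeR the unadjusted p was 0.000771 for IL1B, 0.00880 for IL1A and 0.00472 for TNFSF14, and each had an adjusted p of 0.455. With the length trend removed IL1B, IL1A and TNFSF14 had values of -0.39, -0.22 and 0.84, with unadjusted p of 0.000523, 0.0714 and 0.00371 in edgeR.

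**Figure D5:**
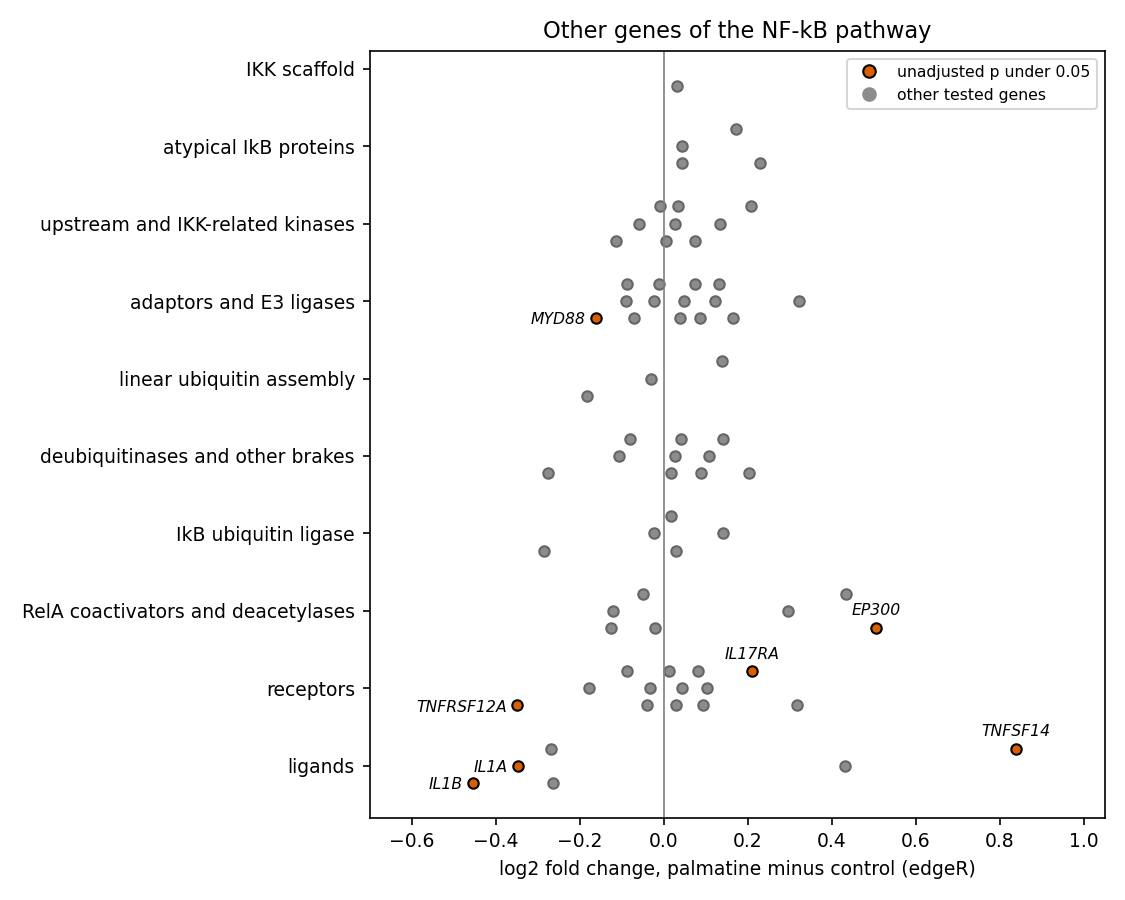
Log2 fold change, palmatine minus control, of the 72 tested pathway genes outside the core, by list; orange points have an unadjusted p under 0.05 in edgeR and are named. The 7 named genes reach from -0.45 for IL1B to 0.84 for TNFSF14, and most other points lie near 0.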

How the data were processed

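The authors deposited raw read counts and FPKM for 20035 genes in 6 libraries, per the file headers. The submitters' processing notes name HISAT2 2.1.0 and HTSeq 0.9.1. Per the labels' protocols, polyadenylated RNA was sequenced. For the counting, no build, annotation or strand setting is given in the sources used here. The authors' FPKM were recomputed from counts, gene length and library total for 100% of values (relative tolerance 1e-05). Of the gene identifiers, 19851 were found in GENCODE 29, all at the same locus and strand, so coordinates follow GRCh38.

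Genes kept by filterByExpr (minimum count 10) were tested by the edgeR 4.0.16 quasi-likelihood test with TMM factors in R 4.3.3, and no covariate was fitted. Two-sided p-values were adjusted over all 12356 genes by the Benjamini-Hochberg method, with a threshold of 0.05. CPM use the TMM-scaled library size. Standard errors were derived from the F statistic. Totals of 12908646 to 17218171 counts set the precision. Every replicate pair differed by more than sampling noise. The test was checked on simulated counts. Alternatives used DESeq2 1.42.0, limma 3.58.1 (voom, or log2(FPKM + 1), log2(FPKM + 0.1) and log2(TPM + 1)), other scaling and filters, removal of a loess trend on length (span 0.3), a replicate block and each library left out.

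Named were the 10 genes, 7 further genes whatever their values, and from each pathway list up to 3 tested genes with the smallest p, of which 1 is not reported here. The genes and lists were chosen with earlier results of these data known. Promoter sequences are from RefSeq on GRCh38.p14.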

Additional observations from a re-analysis of the deposited data

How the results depend on the processing

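No gene of the 10 was called under any of 19 alternatives, a threshold of 0.1 included. Over 18 other settings their log2 fold changes gave 180 values, of which 0 passed, 22 had another sign than in edgeR, and the smallest adjusted p was 0.0860 (RELA and IKBKB, TPM). The p-values with TPM come from the limma fit before the median of all genes, 0.18, was subtracted from its values, so they include that shift. The signs of RELA, REL, NFKBIB and NFKBIE changed in none. RELB, at -0.01 in edgeR, was 0.0524 with library size alone, 0.0474 with the length trend removed, 0.0496 with log2(FPKM + 1) with or without the filter, 0.0569 with log2(FPKM + 0.1) and 0.00921 with TPM relative to the median of all genes, which TPM moved by 0.18. With single libraries left out it ran from -0.0707 to 0.0669, and NFKB2 from -0.0420 to 0.0583. With the length trend removed NFKB1 was -0.0811, NFKB2 -0.0155, NFKBIA 0.00653 and IKBKB -0.00206. With library size alone NFKBIA was 0.0271 and CHUK 0.00902, with log2(FPKM + 1), filtered or not, 0.0265 and 0.00778, and with log2(FPKM + 0.1) 0.0272 and 0.00849. Of these fits, only TPM was set relative to the median of all genes. With library size alone that median was 0.0617. It was 0.0425 with log2(FPKM + 1), 0.0197 with the same values unfiltered and 0.0594 with log2(FPKM + 0.1). The turns in these fits thus include a shift of the whole table. The cause was not tested.

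Over all genes, edgeR called 0 higher and 5 lower. TPM gave 1 higher. The count of lower genes was 8 with no count filter, 13 with DESeq2, 9 with the replicate block, 8 with the length trend removed, 3 with unfiltered FPKM and 8 at an adjusted p of 0.1, and 5 to 6 with a library left out. At an unadjusted p under 0.05, 634 higher and 579 lower genes became 1539 and 179 with library size alone, 4790 and 40 with TPM, and 1268 and 1235 with the replicate block. Leaving out any of the 6 libraries moved both counts by over 1.5 times, from 172 and 129 without palmatine replicate 1 to 1556 and 1678 without palmatine replicate 2. The labels do not say that replicate numbers pair samples, so the numbers were not taken as pairs. Same-numbered libraries had correlations of 0.399, 0.178 and -0.0963 between their deviations, and the other pairings ran from -0.465 to 0.323. Deviations are centred within each group, so these values depend on each other and cannot decide the pairing. The log2 ratio of inhibitors to subunits, at -0.17, was -0.34 without NFKBIA and -0.25 to -0.08 with a library left out. The difference in summed kinase FPKM was 0.647 as deposited and -0.02 after division by the TMM factors.

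With 3 libraries per group, the standard errors of the 10 log2 fold changes ran from 0.0669 to 0.143, and NFKBIE, with 148 to 188 counts, is the least precise by depth.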
